A study of Mus musculus with 14 samples.

Results

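The genes described here are 10 mouse genes that link the actin cytoskeleton to the cell surface or put it under tension. They are smoothelin (Smtn), the 3 ERM genes radixin (Rdx), ezrin (Ezr) and moesin (Msn), the myosin genes Myh9 and Myl9, the kinases Rock1 and Rock2, calponin 2 (Cnn2) and tropomyosin 1 (Tpm1). The list was drawn up with the aged-young values of these libraries known, so those values are given below as a description, and their place in the fit of all targets is read as no evidence. Each gene is read by 1 of the 23930 targets of the panel, and 9 of the 10 had enough reads to be among the 14168 targets tested. Myl9 did not.

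The mRNA measured was that of LSECs, the sinusoidal endothelial cells of the liver, whose thin walls are pierced by pores. They were sorted from livers of female wild-type C57BL/6J mice as CD45-dim, STAB2-high and CD146-high cells, and neither age group had a further genotype or treatment. Aged mice were 10 to 11 months old and young mice 8 to 10 weeks old. Experiment 1 gave 3 libraries per age and experiment 2 gave 4, so each age has 7 of the 14 libraries, named by age, experiment and replicate number (aged 1.3 is the aged library with number 3 in experiment 1). No label states that libraries came from separate mice, and p-values therefore measure the spread between libraries, part of which may be technical.

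ERM proteins tie actin filaments to proteins of the plasma membrane and open to their active form when phosphorylated. Myosin II slides actin filaments and gives tension, and the kinases Rock1 and Rock2 raise that tension by keeping the myosin light chain phosphorylated. Smoothelin, calponin and tropomyosin bind along actin filaments, and smoothelin is best known from contractile smooth muscle. In LSECs the actin cytoskeleton frames the fenestrae, the open pores through which plasma reaches the hepatocytes.

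RefSeq promoters (assembly GRCm38.p6) were matched for 9 of the 10 genes, all but Rock1. Each window runs from 250 bases before to 50 bases after the transcription start. Shown 5′ to 3′ are Smtn and Rdx, whose levels separated the ages, and Msn and Cnn2, whose levels moved together between libraries. Capitals mark matches on either strand to a GC box (GGGCGG), a TEAD motif (GGAATG), an ETS motif (CCGGAAGT) or the CArG box bound by serum response factor. The windows are chr11:3539243-3539542 on the minus strand for Smtn, chr9:52047691-52047990 on the plus strand for Rdx, chrX:96095795-96096094 on the plus strand for Msn and chr10:79988350-79988649 on the plus strand for Cnn2.
Smtn: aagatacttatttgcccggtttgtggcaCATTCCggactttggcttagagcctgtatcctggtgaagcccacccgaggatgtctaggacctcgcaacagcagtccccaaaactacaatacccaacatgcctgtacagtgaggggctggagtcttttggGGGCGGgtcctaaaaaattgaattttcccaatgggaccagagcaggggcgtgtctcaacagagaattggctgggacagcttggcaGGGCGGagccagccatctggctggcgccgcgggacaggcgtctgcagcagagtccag
Rdx: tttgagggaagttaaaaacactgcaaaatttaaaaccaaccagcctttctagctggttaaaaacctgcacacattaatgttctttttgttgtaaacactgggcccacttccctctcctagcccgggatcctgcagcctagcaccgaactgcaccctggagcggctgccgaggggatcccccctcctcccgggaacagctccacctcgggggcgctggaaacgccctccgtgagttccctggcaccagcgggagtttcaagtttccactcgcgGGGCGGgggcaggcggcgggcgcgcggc
Msn: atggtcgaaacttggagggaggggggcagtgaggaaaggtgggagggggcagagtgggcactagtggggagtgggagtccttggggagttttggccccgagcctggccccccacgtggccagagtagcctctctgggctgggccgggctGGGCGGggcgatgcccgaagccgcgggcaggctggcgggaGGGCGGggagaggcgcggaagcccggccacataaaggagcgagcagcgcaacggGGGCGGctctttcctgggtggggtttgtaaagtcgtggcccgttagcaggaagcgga
Cnn2: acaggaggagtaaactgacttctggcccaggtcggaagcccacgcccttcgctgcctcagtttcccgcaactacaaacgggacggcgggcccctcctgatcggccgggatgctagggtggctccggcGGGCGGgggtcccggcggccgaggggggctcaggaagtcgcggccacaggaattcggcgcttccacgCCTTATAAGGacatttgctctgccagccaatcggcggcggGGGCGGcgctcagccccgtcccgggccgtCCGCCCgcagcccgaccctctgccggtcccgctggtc

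The GC box was found in all 9 genes with a promoter and in 35.7% of the 32851 promoters of the table. The windows that held it were 56.3 to 84.7% G and C, against a median of 52.7% over all promoters. A motif made of G and C alone is matched more often in such windows. A CArG box was found in Cnn2, starting 56 bases before the transcription start and reading CCTTATAAGG, and in Myl9, starting 161 bases before it and reading CCTAATAAGG. It was found in 1.63% of all promoters. The TEAD motif was found in Smtn, 222 bases before the start, and in Tpm1, 56 bases before it, against 14.7% of all promoters. No promoter of the 9 genes held the ETS motif, which 3.89% of all promoters held. Rdx has a second start in the table, whose window held none of these motifs. These are matches of letters, not sites shown to be bound.

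Gene reads per library ranged from 6710403 to 13977361, and the 9 tested genes had 140 to 8349 reads in a library. Levels are CPM, gene reads scaled to a common library size with TMM factors (trimmed mean of M values), and each target amplifies with its own efficiency, so levels were not compared between genes. LSEC markers summed to 27198 to 34143 CPM (without TMM) in the aged and 28638 to 34420 CPM in the young libraries. Leukocyte markers summed to 108.9, 848.4 and 2702 CPM (lowest, median and highest) in aged libraries and to 98.3, 143.8 and 1210 CPM in young ones. The sums for Kupffer cells were 31.3, 81.6 and 255.6 CPM against 7.30, 25.1 and 86.6 CPM. All 10 tested leukocyte, all 6 tested Kupffer cell and all 6 tested hepatocyte markers had positive aged-young values, with hepatocyte sums of 480.5, 1121 and 6029 CPM in aged against 361, 803.5 and 1561 CPM in young libraries. Of the LSEC markers 9 of 12, and of the markers of large-vessel and capillary endothelium 6 of 8, had negative values (medians -0.11 and -0.23 on the log2 scale). Aged 1.3 had the highest hepatocyte sum, 6029 CPM, and a leukocyte sum of 2582 CPM, second to the 2702 CPM of aged 2.2. Targets of olfactory, vomeronasal and taste receptors took 0.146 to 3.18% of gene reads, and their share followed the first principal component of all libraries, which held 59.2% of the variance. In experiment 2, young 2.2 (2.93%) and aged 2.4 (2.81%) had receptor shares like those of experiment 1.

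Smtn was lower in every aged library than in any young library. In experiment 1 the 3 aged libraries held 83.6, 84.5 and 77.3 CPM and the 3 young libraries 150.3, 128.4 and 128.5 CPM. In experiment 2 the 4 aged libraries held 106.9, 107.7, 127.7 and 92.4 CPM and the 4 young libraries 147.7, 153.3, 161.3 and 212.5 CPM. The highest aged library, aged 2.3, stood just under the lowest young library, and young 2.4 stood above all others. The means were 97.2 ± 17.8 CPM in the aged and 154.6 ± 28.4 CPM in the young libraries (SD, n = 7 each), and the fitted aged-young difference was -0.68 on the log2 scale (SE 0.10).

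Among the ERM genes, Rdx, Ezr and Msn had different aged-young values. Rdx held 44.4, 47.6 and 103.6 CPM in the aged and 120.3, 164.6 and 129.2 CPM in the young libraries of experiment 1. In experiment 2 it held 80.0, 97.1, 119.1 and 115.3 CPM in the aged and 174.0, 188.5, 211.3 and 287.0 CPM in the young libraries. The ages did not overlap, although aged 2.3 lay close to young 1.1. Within the aged libraries of experiment 1, aged 1.3 stood above the other pair. The means were 86.7 ± 30.6 and 182.1 ± 56.1 CPM (SD, n = 7 each) and the log2 difference was -1.07 (SE 0.19), or 2.10-fold lower in aged libraries.

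Ezr, the ERM gene best known from epithelial microvilli, had the opposite sign. It held 14.2, 29.4 and 41.7 CPM (lowest, median and highest) in the aged and 12.2, 20 and 30.2 CPM in the young libraries, a log2 difference of 0.58 (SE 0.25). All 7 aged libraries were above the young mean of their experiment, aged 2.4 barely so (25.1 against 25.07 CPM), but the ages overlapped. The highest value was that of aged 1.3, and without this library the log2 difference was 0.30. With the summed leukocyte and Kupffer cell markers as a term it was 0.21. Msn, the ERM gene known as the main one of endothelium and leukocytes, held 232.5, 404.2 and 662.6 CPM in the aged and 395.0, 492.7 and 529.3 CPM in the young libraries. Its aged libraries spread on both sides of the young ones, and its log2 difference was -0.10 (SE 0.18).

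The myosin genes, Rock1 and Rock2 overlapped between the ages. Myh9 is the heavy chain of non-muscle myosin IIA. It held 293.3, 459.0 and 557.5 CPM in the aged and 348.3, 399.9 and 588.8 CPM in the young libraries. Its log2 difference was 0.03 (SE 0.12), and -0.03 with stellate cell, fibroblast, smooth muscle and pericyte markers summed as a term. Myl9, a regulatory light chain of smooth muscle and non-muscle myosin, had 0 to 23 reads per library, at most 1.82 CPM. Its 0 reads in young 2.2 allow up to 0.397 CPM, a limit of 3 reads that covers counting error only. Rock1 held 36.4, 49.5 and 64.3 CPM in the aged and 34.3, 49.7 and 73.3 CPM in the young libraries (log2 difference -0.07, SE 0.17). Rock2 held 82.2, 107.7 and 119.8 CPM in the aged and 94.3, 117.9 and 176.1 CPM in the young libraries (log2 difference -0.24, SE 0.12). For Rock2 all 7 aged libraries, and for Rock1 4 of 7, lay under the mean of the young libraries of the same experiment.

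The filament-binding genes Cnn2 and Tpm1 also overlapped. Cnn2, a calponin found outside smooth muscle, held 271.1, 316.4 and 514.7 CPM in the aged and 327.0, 368.7 and 494.4 CPM in the young libraries (log2 difference -0.16, SE 0.12). Tpm1, which stabilises actin filaments, held 36.6, 86.2 and 102.4 CPM in the aged and 66.3, 70.7 and 103.2 CPM in the young libraries (log2 difference -0.12, SE 0.14). Its lowest value was that of aged 1.3. The sign of Tpm1 turned with leukocyte and Kupffer cell markers as a term (0.04).

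**Figure D1:**
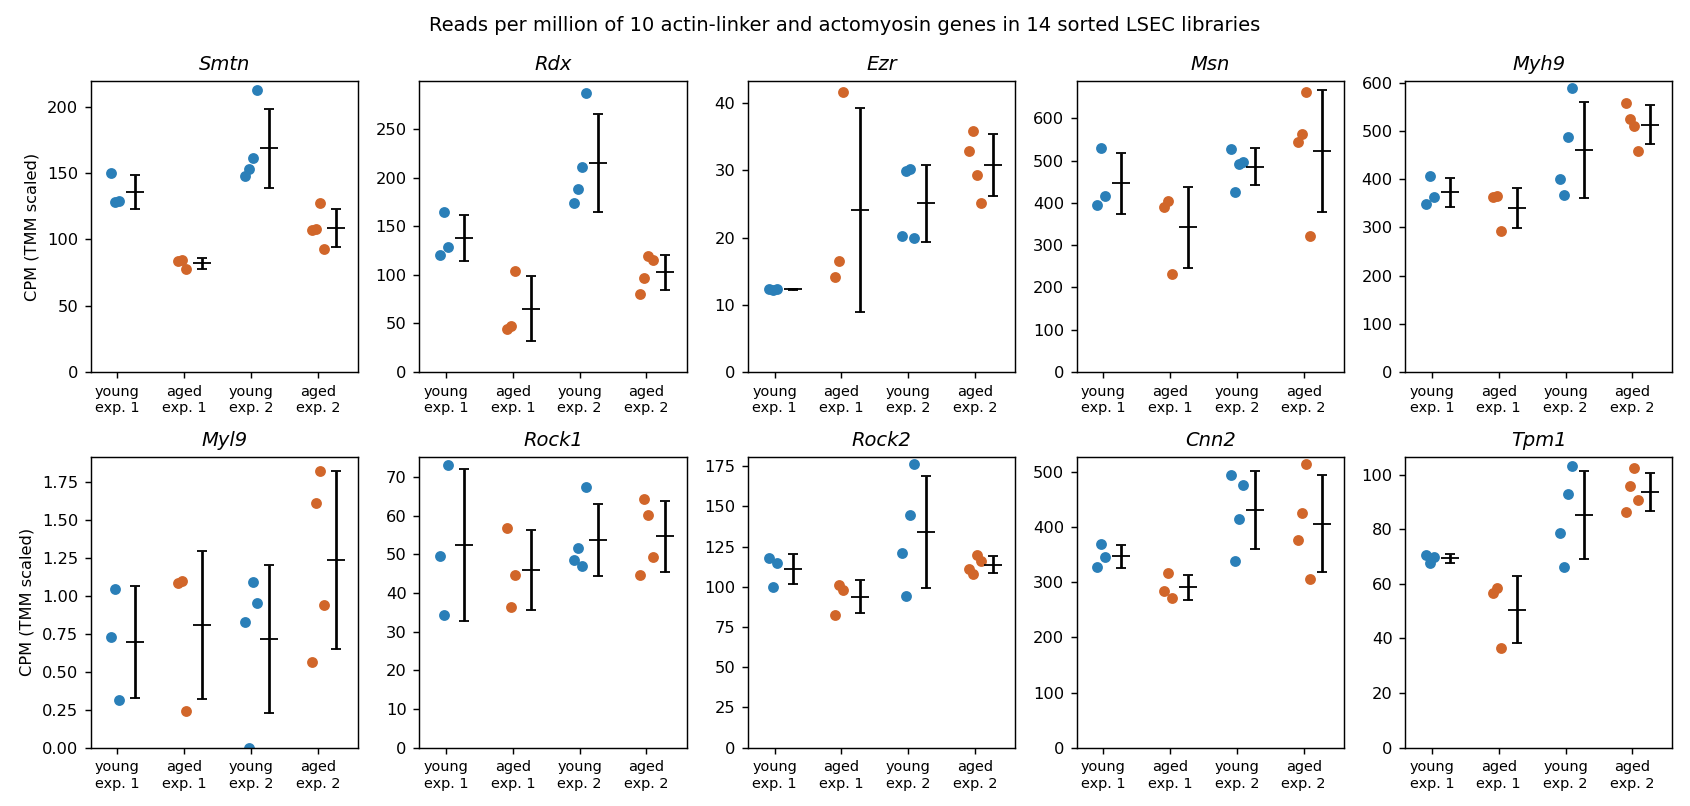
Level of each gene in CPM in the 14 libraries, by age and experiment. Smtn and Rdx are the genes whose aged libraries, at 77.3 to 127.7 and 44.4 to 119.1 CPM, all lie under the young ones.

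Smtn and Rdx were the 2 of the 9 tested genes past the threshold of the age fit (Benjamini-Hochberg adjusted p under 0.05 in edgeR's quasi-likelihood test), where 0.162% of all tested targets were called, and 0.0847% called lower. They were also the 2 whose ages did not overlap over all 14 libraries, as in 0.113% of targets for lower and 0.233% for either direction. Nothing is read from these counts, since the genes were chosen from this comparison. Neither stayed past the threshold without aged 1.1, aged 1.2, aged 2.1 or aged 2.2, nor with leukocyte and Kupffer cell markers as a term, and of the fits without 1 library Rdx passed only in that without aged 1.3. Leaving out single libraries kept the log2 difference between -0.73 and -0.61 for Smtn and between -1.26 and -0.98 for Rdx. With the marker term the values were -0.62 and -1.09. In sorted bulk cells, fewer cells of a type and less RNA per cell cannot be told apart.

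Markers of contractile cells bear on a list with smooth muscle genes. Smooth muscle and pericyte markers summed to 22.6, 40.0 and 73.9 CPM in the aged and 9.47, 30.6 and 49.0 CPM in the young libraries. Acta2 reached at most 1.53 CPM and Myh11 at most 0.784 CPM in any library, and Kcnmb1 and Cspg4 had no read in any aged library. The sums came mostly from Rgs5 (medians of 17.9 CPM in aged and 12.3 CPM in young), Notch3 (16.7 and 8.53 CPM) and Cnn1 (8.11 and 4.78 CPM), and all 3 tested markers had positive aged-young values. Markers of stellate cells and fibroblasts summed to 208.5, 297.7 and 663.1 CPM against 182, 207 and 425.8 CPM, with 7 of 9 tested markers above 0. A further term summed the markers of both lists, called contractile cell markers below. Its largest parts were Ecm1 (medians of 178.9 CPM in aged and 139.4 CPM in young) and Dcn (77.3 and 46.0 CPM). The term therefore mostly follows the stellate cell and fibroblast list, and smooth muscle markers add little to it. With this term the log2 difference was -0.73 for Smtn, which stayed called, and -1.18 for Rdx, which did not (adjusted p = 0.0787 with edgeR).

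Smtn and Rdx were lower in aged libraries in each experiment. For Smtn the log2 difference was -0.73 (SE 0.16) in experiment 1 and -0.63 (SE 0.14) in experiment 2, and for Rdx it was -1.08 (SE 0.30) and -1.06 (SE 0.26). Ezr had 0.97 (SE 0.37) and 0.30 (SE 0.32), and its value in experiment 1 was 0.32 without aged 1.3 and 0.49 with leukocyte and Kupffer cell markers as a term. Tpm1 had -0.46 (SE 0.19) in experiment 1 and 0.14 (SE 0.16) in experiment 2. In all, 5 of the 9 genes had the same sign in both experiments, against 52.2% of tested targets.

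**Figure D2:**
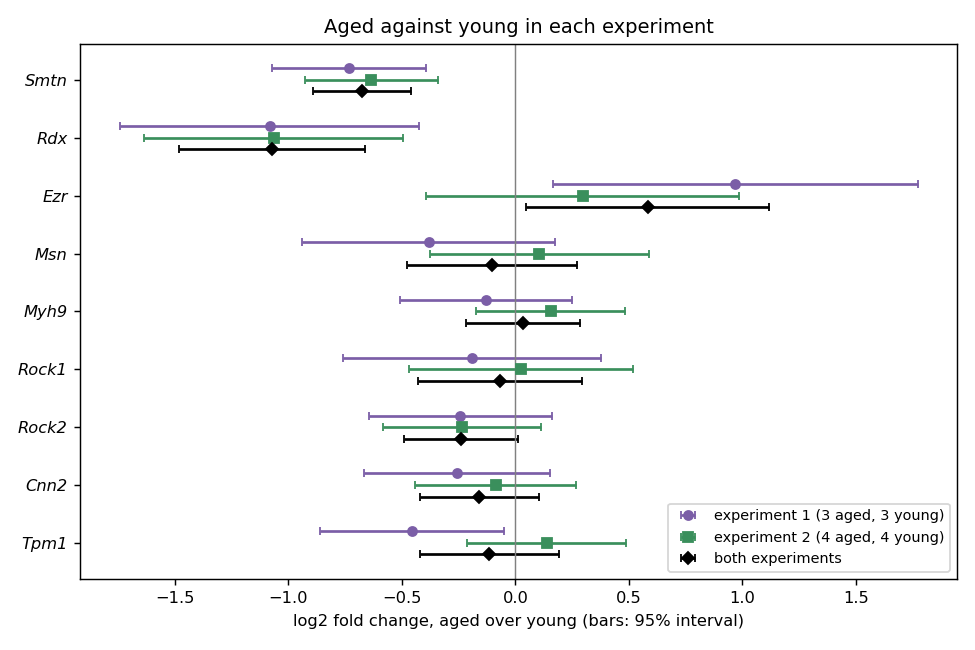
Fitted aged-young log2 difference of the 9 tested genes in each experiment and over both experiments, with its 95% interval. Smtn and Rdx lie under 0 in both experiments, and Tpm1 lies at -0.46 in experiment 1 and at 0.14 in experiment 2.

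Whether the age difference itself differed between the experiments was tested in the fit of all targets. This contrast was not used to choose the genes, but it is not independent of the choice. A gene with unlike values in the experiments is less likely to be called for age. The values of Smtn and Rdx below are therefore a description. The edgeR quasi-likelihood test called 0 of the 9 genes and 0 of 14168 targets (0%), and DESeq2 also called 0. At an unadjusted p under 0.05 there were 309 targets (2.18%), of which Tpm1 was the one member of the list. Its difference was 0.59 (SE 0.25, unadjusted p = 0.0325, adjusted p = 0.9998 with edgeR). For Smtn the difference was 0.10 with a 95% interval of -0.35 to 0.54, and for Rdx it was 0.02 with an interval of -0.84 to 0.88.

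All 9 tested genes had higher fitted levels in experiment 2 than in experiment 1, as did 59.1% of tested targets. The test called 3 of them, Tpm1, Myh9 and Smtn, where 6.99% of targets were called higher and 7.79% in either direction. Tpm1 held 36.6 to 70.7 CPM in experiment 1 and 66.3 to 103.2 CPM in experiment 2, a log2 difference of 0.59 (SE 0.15, adjusted p = 0.0291 with edgeR). The values were 0.45 (SE 0.12, adjusted p = 0.0377) for Myh9 and 0.36 (SE 0.10, adjusted p = 0.0452) for Smtn in the same edgeR fit. None of the 9 was called with the receptor share as a term, where Msn turned to -0.01 and 192 of 14168 targets were called. Without young 2.2 and aged 2.4, 8 of the 9 were called. In that fit 7738 of 14202 targets were called, so such calls were not particular to these genes. None of the 9 was called in 8 of the 14 fits that left out 1 library (aged 1.1, 1.2, 2.1 or 2.3, or young 1.3, 2.1, 2.3 or 2.4). Scaling without TMM moved the median of all targets from 0.118 to -0.02. The receptor share was 1.20 to 3.18% in experiment 1 and 0.146 to 2.93% in experiment 2.

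Levels of Msn and Cnn2 were lower in libraries with a larger receptor share. Per doubling of the share, Msn changed by -0.18 on the log2 scale (SE 0.06, adjusted p = 0.0184 with edgeR) and Cnn2 by -0.13 (SE 0.04, adjusted p = 0.0228), with age and experiment in the fit. Of the 13039 targets that are no receptors, 21.2% were called lower and 42.5% in either direction, so a count of 2 of 9 genes lies near the background. Smtn changed by -0.08 (SE 0.04) and Rdx by -0.04 (SE 0.08), and neither was called. Neither Msn nor Cnn2 was called without TMM, with DESeq2's size factors, without the filter on low counts, or without young 2.2 and aged 2.4. Leaving out young 2.1, aged 2.3 or aged 2.4 alone ended both calls, and leaving out young 2.2 ended that of Cnn2.

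**Figure D3:**
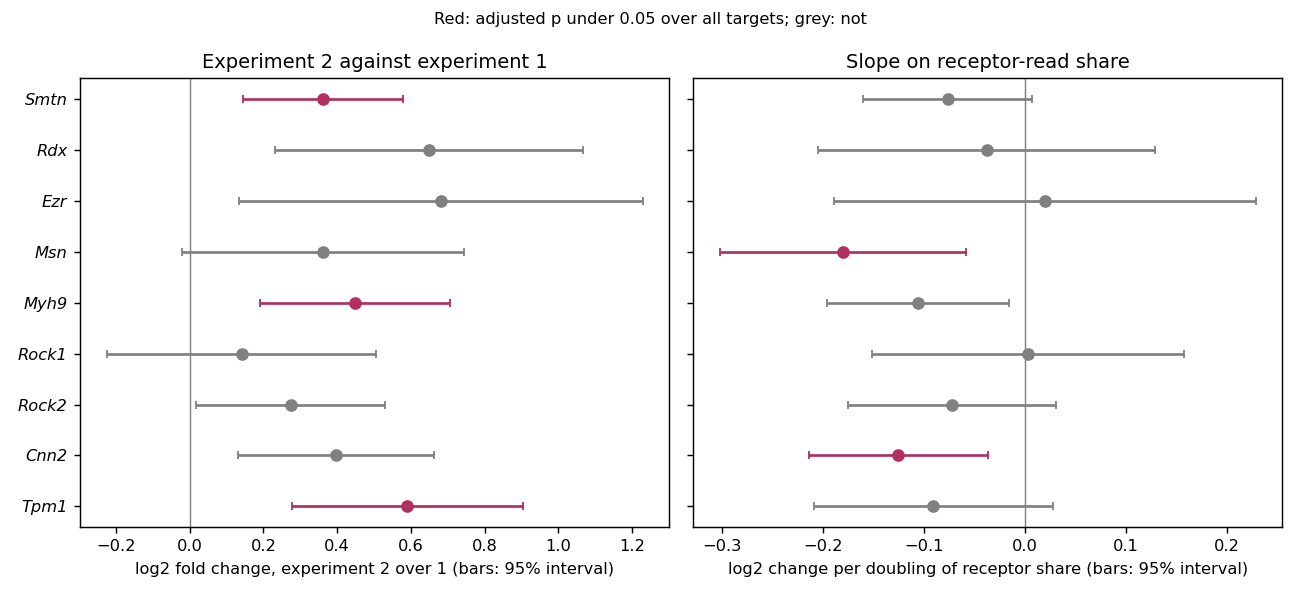
Fitted log2 difference between experiments 2 and 1, and fitted log2 change per doubling of the receptor share, for the 9 tested genes with their 95% intervals. All 9 lie above 0 between experiments, and Msn and Cnn2 lie lowest against the receptor share, at -0.18 and -0.13.

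Between libraries of 1 age and experiment, Msn and Cnn2 rose and fell together. Over the 14 libraries, with the 4 age-by-experiment means taken out, their Pearson r was 0.777 (permutation p = 0.0001, adjusted 0.0036 over 36 pairs) and Spearman's coefficient 0.802 (permutation p = 0.00117, adjusted 0.0421). It was 0.797 within experiment 1, 0.871 within experiment 2 and 0.74 without aged 2.4 and aged 1.3, the libraries farthest from the median of Msn on this scale. Without aged 2.4 alone it was 0.625 and still passed. Both genes also followed many other targets, with a median r of 0.319 for Msn and 0.352 for Cnn2 over 10735 targets. The pair did not pass with the receptor share as a term (0.567) or without TMM (0.581). It also did not pass without young 2.1 (0.625), young 2.2 (0.811), aged 2.2 (0.774) or both young 2.2 and aged 2.4 (0.613).

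No other of the 36 pairs passed. Myh9 and Tpm1 had an r of 0.774 (Spearman 0.631, permutation p = 0.0157 and 0.0683, adjusted 0.141 and 0.346), and 0.623 without young 2.4 and young 2.2. For Ezr and Tpm1 the r was -0.716 (Spearman -0.56, permutation p = 0.0879 and 0.149, adjusted 0.389 and 0.383), and it was -0.29 without aged 1.3 and -0.44 without aged 1.3 and aged 1.1. Smtn and Rdx, the genes whose ages separated, had an r of 0.153 (Spearman -0.06, permutation p = 0.559 and 0.846, adjusted 0.774 and 0.956), which was -0.216 without young 2.4 and -0.355 without young 2.4 and aged 2.3.

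**Figure D4:**
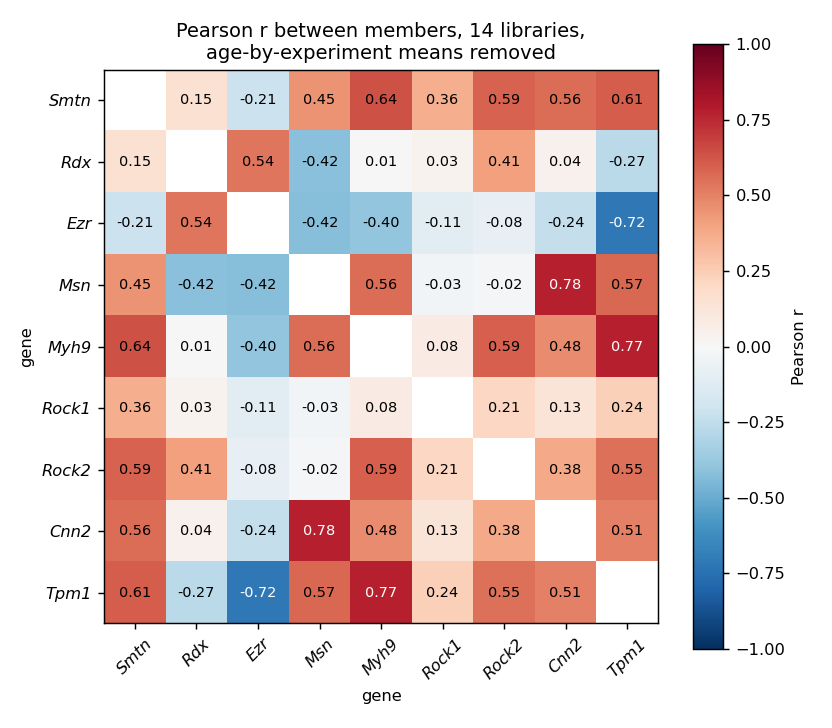
Pearson r between the 9 tested genes over 14 libraries after the age-by-experiment means were taken out. Msn with Cnn2 (0.777) and Myh9 with Tpm1 (0.774) are the highest, and Ezr with Tpm1 (-0.716) is the lowest.

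Receptor targets were left out and the 4 means again taken out. Among the remaining 10735 targets with a mean of at least 5 CPM, those whose levels followed Smtn and Rdx most closely were sought. They are the highest of many and are given as a description. For Smtn they included Lhfp (r 0.932), the laminin receptor subunit Itga6 (0.927) and Serpinh1 (0.920), a chaperone of collagen. Serpinh1 held 83.4 ± 38.9 CPM in the aged and 132.6 ± 42.8 CPM in the young libraries (SD, n = 7 each), and young 2.4 was its highest library, as for Smtn. Lhfp had an aged-young log2 value of 0.46 (SE 0.37) and Smtn one of -0.68, so the likeness within groups did not extend to the sign between ages.

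For Rdx the closest were Rspo3 (r 0.961), a secreted enhancer of Wnt signalling, Prps1 (0.899), Acot7 (0.895) and the protocadherin Pcdh1 (0.888). Rspo3 held 129.1 CPM in aged 1.3, against 14.4 and 18.3 CPM in the other aged libraries of experiment 1, and 63.0 CPM in young 2.4. These are the libraries in which Rdx was highest for its age and experiment. The r of Rspo3 was 0.986 within experiment 1 and 0.983 within experiment 2, and its aged-young log2 value was 0.32 (SE 0.70), which was -0.43 without aged 1.3.

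**Figure D5:**
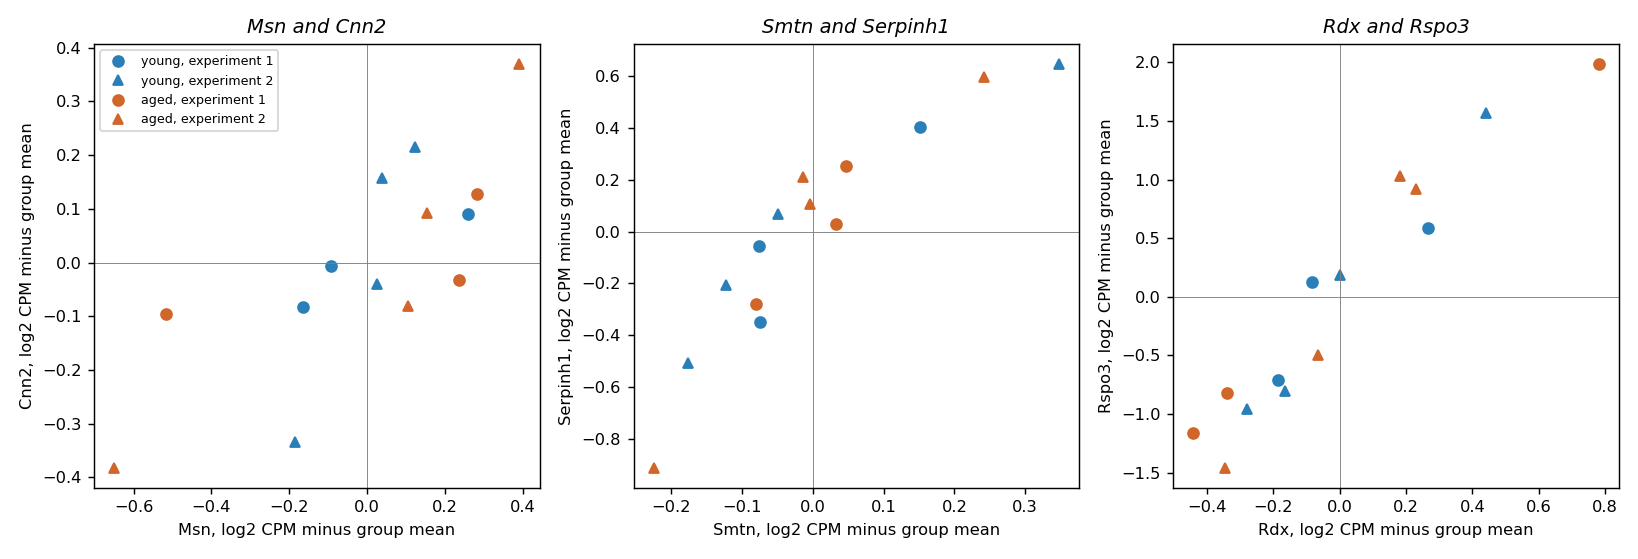
Log2 CPM of 3 pairs of genes in the 14 libraries after the age-by-experiment means were taken out. The points of Msn and Cnn2 (r 0.777), Smtn and Serpinh1 (0.920) and Rdx and Rspo3 (0.961) rise together.

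Other genes of these pathways were read from the same age fit. In 4 lists, 61 genes outside the 10 were tested, and edgeR called 0 of them, with 8 at an unadjusted p under 0.05. Across all tested targets, 0.162% were called and 6.77% had an unadjusted p under 0.05.

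Of the 12 tested ERM relatives, partners and kinases, 7 had a value above 0 and 5 below, with a median log2 value of 0.02 against -0.00227 over all targets. Icam2, an adhesion molecule of endothelium that ERM proteins bind, held 203.8 ± 36.9 CPM in the aged and 278.1 ± 34.5 CPM in the young libraries (SD, n = 7 each). Its log2 value was -0.45 (SE 0.13, adjusted p = 0.4596 with edgeR), and it was called by DESeq2 and with the receptor share as a term. Epb41, which joins the spectrin network to the membrane, held 22.67 ± 4.93 and 13.98 ± 3.09 CPM, with 0.69 (SE 0.21, adjusted p = 0.4645 with edgeR), and was called by DESeq2. Cd44, a hyaluronan receptor of leukocytes and other cells, had 2.07 (SE 0.79), which turned to -0.14 with leukocyte and Kupffer cell markers as a term. Slk, a kinase of ERM proteins, had -0.24 (SE 0.10).

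Of the 24 tested genes around myosin II and its kinases, 8 lay above 0 and 16 below, with a median of -0.05. The small GTPase Rhoc had -0.30 (SE 0.13), the myosin phosphatase subunit Ppp1r12c -0.27 (SE 0.13) and the non-muscle heavy chain Myh10 -0.59 (SE 0.37). Mylk, myosin light chain kinase, had 0.72 (SE 0.32) at 3.49 ± 2.88 CPM in the aged and 1.94 ± 1.23 CPM in the young libraries (SD, n = 7 each). The other heavy chains, Myh11 and Myh14, had too few reads to be tested.

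Of the 16 tested actin and actin-binding genes, 14 lay below 0, against 50.4% of all tested targets at or below 0, with a median of -0.13, and none was called. Cald1, caldesmon, held 166.4 ± 48.4 CPM in the aged and 204.5 ± 23.5 CPM in the young libraries (SD, n = 7 each), a log2 value of -0.33 (SE 0.12, adjusted p = 0.6434 with edgeR). Vinculin (Vcl) had -0.24 (SE 0.14) and profilin 1 (Pfn1) -0.18 (SE 0.15).

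Of the 11 tested regulators and targets of serum response factor and its MRTF partners, 4 lay above 0 and 7 below, with a median of -0.11. Ccn1, a matrix protein gene that responds fast to growth factors, held 92.1 ± 31.2 CPM in the aged and 194.8 ± 176.9 CPM in the young libraries (SD, n = 7 each), a log2 value of -1.05 (SE 0.45, adjusted p = 0.6928 with edgeR). It was -0.53 without young 2.4 and -0.15 with leukocyte and Kupffer cell markers as a term. Ankrd1 had 1.30 (SE 0.69) at 4.35 ± 6.31 against 1.34 ± 1.10 CPM, and the coactivator Mrtfa had 0.38 (SE 0.25), which was -0.05 with leukocyte and Kupffer cell markers as a term.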

How the data were processed

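The authors deposited raw counts, unnormalised reads per RefSeq transcript target, in 1 file per library. The kit was Ion AmpliSeq Transcriptome Mouse, per the labels' protocols, which reads 1 short amplicon per target. HTSeq 0.6.0 and DESeq2 1.18.1 were among the tools, per the submitters' processing notes. Not given in the sources used here are the aligner, genome build and strand setting. Bookkeeping entries (1.24 to 3.04% of reads) were left out. Symbols came from RefSeq (18128 targets with their version, 4324 without it) and GENCODE (110), and 1368 targets stayed unmatched.

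From these counts, edgeR 4.0.16 (R 4.3.3) was run with filterByExpr, TMM and the quasi-likelihood test, with age and experiment as terms. Values within each experiment, and their difference, came from a model with 1 mean for each of the 4 age-by-experiment groups. Calls had a Benjamini-Hochberg adjusted p under 0.05 over all tested targets. DESeq2 1.42.0, other scalings, marker and receptor terms, and leaving out libraries were alternatives. Correlations used log2 CPM (prior count 2) and 100000 two-sided permutations within the 4 groups. They cover 36 pairs of the 9 tested genes, not the 45 pairs of 10 genes that were planned, since Myl9 had too few reads. Without molecular identifiers, amplicon reads cannot be taken as independent molecules. Aged 1.1 and aged 1.2 were the most alike pair of libraries of 1 age and experiment. Their chi-square per degree of freedom against read sampling was 6.35, and that of the next pair 19.55. Because reads are not independent molecules, this cannot show whether they are separate samples. They were kept as 2 libraries, with their sum as an alternative. The steps were tested on simulated counts with known age and experiment changes. These held no variation with the receptor share, so the test says nothing on calls that depend on it.

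The genes and lists were chosen with earlier results of these data known. The text names all 10 genes, from each list up to 4 genes with the smallest p for age, and for Smtn and Rdx the 4 targets with the highest r. The values of 2 of the genes this rule takes are not reported here.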

Additional observations from a re-analysis of the deposited data

How the results depend on the processing

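The number of targets called for age was 23 (11 higher, 12 lower). It was 46 without TMM (28 higher, 18 lower), 146 with DESeq2, 12 without the experiment term, 59 with the receptor share, 3 with leukocyte and Kupffer cell markers and 6 with contractile cell markers as a term. It was 36 without young 2.2 and aged 2.4, 4 with aged 1.1 and aged 1.2 summed, and 4 to 29 when 1 library was left out. Of the 9 tested genes, 2 were called in the main fit, 1 (Smtn) without TMM, with contractile cell markers, or without young 2.2 and aged 2.4, and 0 without the experiment term, with leukocyte and Kupffer cell markers or with the summed libraries, and 0 to 2 when 1 library was left out. The number with the same sign in both experiments was 4 to 7. After group means were taken out, same-numbered libraries correlated between -0.385 and 0.776. Differently numbered libraries of the same experiment correlated between -0.796 and 0.735. These ranges are alike and wide, so they cannot tell whether replicate numbers pair the samples. With the replicate number as a block, 5 targets and 0 of the 9 genes were called for age.

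Between experiments, 1103 targets were called, against 615 without TMM, 671 with DESeq2's size factors, 2006 with DESeq2, 367 without the filter, 192 with the receptor share, 39 with contractile cell markers, 7738 without young 2.2 and aged 2.4, 325 with the summed libraries and 167 to 5057 with 1 library left out. Of the 9 genes, 3 were called, against 1 with DESeq2's size factors, 5 with DESeq2 and 8 without young 2.2 and aged 2.4. None was called without the filter, with the receptor share, with contractile cell markers or with the summed libraries (0 each), and 0 to 6 with 1 library left out. For the receptor share, 5543 targets were called, against 3181 without TMM, 2315 without young 2.2 and aged 2.4 and 3708 to 6037 with 1 library left out. Of the 9 genes, 2 were called, and 0 without TMM, with DESeq2's size factors, without the filter, or without young 2.2 and aged 2.4, and 0 to 3 with 1 left out. The ERM list had 2 calls with DESeq2 and 1 with the receptor share. The number of pairs past the threshold was 1, against 0 without TMM or with the receptor share, and 0 to 1 with 1 library left out. Without young 2.2 and aged 2.4 the pair that passed was Smtn and Tpm1 (0.613).

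Some single values turned sign. The Rdx difference between experiments was -0.134 without TMM, -0.0381 with DESeq2, -0.0382 with its size factors, -0.014 without the filter, -0.0166 with the receptor share, -0.214 with contractile cell markers, -0.174 with the summed libraries and -0.1 without young 2.2 and aged 2.4, and from -0.195 to 0.521 with 1 library left out. That of Rock2 was -0.0993, -0.0448, -0.045, -0.0258, -0.0448, -0.0855, -0.00257 and -0.141 in the same order, -0.0286 with leukocyte and Kupffer cell markers, and from -0.129 to 0.166 with 1 library left out. That of Smtn was -0.034 without TMM and from -0.0404 to 0.228 with 1 left out, and that of Rock1 from -0.105 to 0.443. Slopes on the receptor share without TMM were 0.00818 for Smtn, 0.0467 for Rdx and 0.0107 for Rock2. The Rdx slope was 0.0162 with contractile cell markers and from -0.096 to 0.0256 with 1 library left out, and that of Rock1 was -0.00177 with the summed libraries. With 1 left out the slope ran from -0.0713 to 0.103 for Ezr and from -0.0345 to 0.0615 for Rock1. Msn between experiments was -0.00941 with the receptor share. The age value was -0.143 for Cd44 and -0.0533 for Mrtfa with leukocyte and Kupffer cell markers, and 0.00253 for Prps1 without TMM. With 1 library left out it ran from -0.431 to 0.847 for Rspo3, from -0.199 to 0.0141 for Prps1 and from -0.715 to 0.0427 for Acot7, and the r of Smtn and Rdx ran from -0.216 to 0.454. Of 2021 values of single genes and pairs recomputed, 77 turned sign. Among them were uncalled age values of Msn, Myh9, Rock1 and Tpm1, and that of Cnn2 within experiment 2. These moved by less than the within-group SD. The cause of these changes was not tested.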

Other observations

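The 9 tested genes also differed in how much they varied between libraries of the same age and experiment. The within-group SD of log2 CPM was 0.18 for Smtn, smaller than in all but 4.15% of 11746 targets averaging 5 CPM or more. Receptor targets are among these 11746. For Myh9 the SD was 0.202 (8.01%). It was 0.392 for Rdx (55.3%) and 0.433 for Ezr (60.4%), around the median of 0.361 over these targets. A small within-group spread helps a gene pass the age test, so the value of Smtn is not independent of how it came to be listed.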
